A study of Mus musculus with 14 samples.

Results

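The late step of ageing in sorted mouse muscle precursor cells was taken as the difference between 24 and 12 months of age. The comparison used the 5 arrays labelled aged (24 months) and the 4 arrays labelled middle-aged (12 months), 9 of the 14 arrays in the series. The other 5 arrays, from young mice (2 months), entered the estimate of the spread and the values of the early step, 12 against 2 months. They also entered the filter, the choice of probe set for each gene and the definition of the array sets given below. All mice were on the C57BL/6 background, with no substrain, sex or treatment named. The cells were freed from skeletal muscle by enzymes and mechanical dissociation, then sorted by flow cytometry as CD45-Ter119-Sca-1-CD29+Cxcr4+, a gate that leaves out blood cells and Sca-1 positive stromal and endothelial cells. Nothing in the labels tells if an array stands for 1 mouse, a pool or a repeat, so every p-value measures only the spread between these arrays. The title of the series names systemic GDF11, a circulating factor of the TGF-beta family, but no array carries a treatment.

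Muscle precursors, or satellite cells, lie beside the muscle fibre, express the transcription factor Pax7, and stay quiescent until injury. Once activated they switch on Myod1 and then myogenin (Myog), divide, fuse, and only as fibres make large amounts of contractile proteins such as troponins, myosins and creatine kinase. Quiescent precursors hold few mitochondria, and activation is known to raise mitochondrial, ribosomal and proteasomal gene expression.

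Probe set values were log2 intensities, and a log2 difference of 1 is a doubling. Array medians of the linear intensity ran from 19.01 to 21.24 over all 14 arrays. Arrays correlated with each other at 0.940 to 0.987 over all tested genes. The first principal component, computed after centring each gene within its age group, held 31.5% of the variance and split the arrays by its sign into set 1 and set 2. Set 1 held middle-aged 2, 3 and 4 and aged 1 and 2, and set 2 held middle-aged 1 and aged 3, 4 and 5. These sets were defined from the data and are unevenly spread over the ages, so medians of the main lists are also given within each set. Degraded RNA widens the gap between the 3' and 5' control probe sets of Gapdh and Actb, and this gap was 3.85 ± 0.25 (SD, n = 4) at 12 months and 3.54 ± 0.51 (SD, n = 5) at 24 months. An exact two-sided permutation test over 126 arrangements gave p = 0.317 (0.476 adjusted over 3 array measures, smallest possible p 0.0159). The array median of log2 intensity was lower by 0.06 at 24 months (exact permutation p = 0.0952, adjusted 0.286).

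Of 13579 genes tested with limma, 0 differed between 24 and 12 months at a Benjamini-Hochberg adjusted p under 0.05, and the smallest adjusted p was 0.242. At an unadjusted p under 0.05, 867 genes were higher at 24 months (6.38% of genes tested) and 439 were lower (3.23%), together 9.62%. The median gene had a difference of 0.01, with 51.4% of genes above 0 and 48.6% below. The 5th and 95th percentiles of the genes were -0.37 and 0.58. A typical 95% interval, not adjusted for the number of genes, reached 0.44 to either side. Differences under about that size could not be resolved gene by gene, and larger ones were not called after adjustment either. At least 2-fold differences were found for 93 genes upward (0.685%) and 8 downward (0.0589%). In 192 genes every aged array lay above every middle-aged array (1.41%), and in 147 every aged array lay below (1.08%). By the same model the early step had 237 genes called higher (1.75%) and 166 called lower (1.22%), with 6.4% higher and 9.93% lower at an unadjusted p under 0.05. The median and the split of these calls depended on scaling. Centring each array on its own median moved the median of all genes to 0.07 and the counts at an unadjusted p under 0.05 to 1150 higher and 264 lower, so that 81.3% of them were higher, against 66.4% as deposited. Quantile normalization gave 672 higher and 536 lower, or 55.6%.

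**Figure D1:**
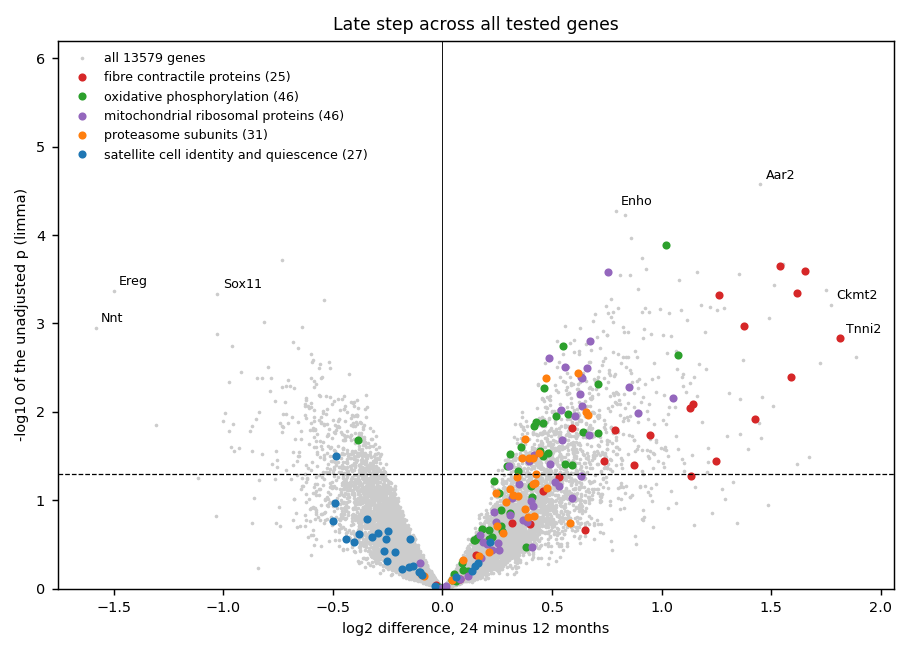
The log2 difference between 24 and 12 months (horizontal) against -log10 of limma's unadjusted p (vertical) for each of 13579 genes, with the genes of 5 lists in colour. The dashed line marks an unadjusted p of 0.05. Genes of the fibre contractile proteins list lie mostly on the right, the satellite cell identity and quiescence list is centred left of 0, and Nnt and Ereg are the farthest to the left.

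The sort was checked against its markers. Pax7 read 9.68, 8.90, 9.14 and 9.64 on the 4 middle-aged arrays and 8.39, 9.02, 8.76, 9.65 and 9.26 on the 5 aged arrays, in replicate order. The ranges overlapped, and the difference was -0.32 (SE 0.27), with a 95% interval of -0.91 to 0.26. Its other kept probe set differed by 0.04. Myf5 and Myod1, the myogenic determination factors, were present on every array, at 7.85 to 9.70 and 7.85 to 9.73 for Myf5 and 10.54 to 11.12 and 10.54 to 11.30 for Myod1 at 12 and 24 months. Their differences were -0.04 (SE 0.44) and 0.11 (SE 0.17). The sign for Myf5 turned with scaling, to 0.02 after median centring. Cxcr4, used in the gate, differed by 0.16 (SE 0.25), and Itgb1, which encodes CD29, by -0.27 (SE 0.29). Itgb1's other kept probe set differed by 0.32. Ptprc, which encodes CD45, and Pecam1 and Tie1 of endothelium did not pass the filter on dim probe sets. Ly6a, which encodes Sca-1, had no probe set of its own.

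Genes for the contractile apparatus of the fibre stood highest of the 52 gene lists examined, with a list median of 0.95. Of the 27 genes on the list of fibre contractile proteins, 25 passed the filter, 24 were higher at 24 months, and 16 had an unadjusted p under 0.05 (6.38% of all genes were higher at that level), with 0 lower. Fast troponin I (Tnni2) read 7.31, 6.14, 7.88 and 6.64 at 12 months and 7.45, 8.38, 8.95, 9.19 and 10.06 at 24 months. Aged 1 lay inside the middle-aged range and the other 4 aged arrays lay above it. The difference was 1.81 (SE 0.47), or 3.52-fold (adjusted p = 0.293). Tnnc2, the calcium-binding subunit of fast troponin, read 9.51, 8.80, 10.40 and 9.66 at 12 months and 10.51, 10.89, 11.31, 11.29 and 12.05 at 24 months, with no overlap. It was higher by 1.62 (SE 0.36), 3.07-fold, with an adjusted p of 0.25. Tnnt3, the tropomyosin-binding subunit, was higher by 1.65 (SE 0.35). Its middle-aged range of 6.59 to 8.07 and aged range of 8.02 to 9.55 met at middle-aged 3 and aged 1. Mylpf, the fast regulatory light chain, read 8.04, 8.0, 8.78 and 7.91 at 12 months and 9.02, 9.25, 10.02, 9.78 and 10.54 at 24 months. The groups did not overlap, and the difference was 1.54 (SE 0.32) (2.91-fold, adjusted p = 0.242).

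Fast and slow forms were both on the higher side. Myl1 (fast essential light chain) was higher by 1.59 (SE 0.47), Myh4 (fast IIB myosin) by 1.38 (SE 0.34), Myh1 (fast IIX myosin) by 1.13 (SE 0.38), and Acta1 (skeletal actin) by 1.14 (SE 0.38). Actn2 and Ldb3, both of the Z-disc, were higher by 0.95 (SE 0.36) and 1.26 (SE 0.28). The slow troponins Tnni1 and Tnnt1 were higher by 0.74 (SE 0.32) and 0.59 (SE 0.22). Tnnt1 was above all middle-aged arrays on 4 of 5 aged arrays, with ranges of 7.39 to 8.02 and 7.80 to 8.70. Tropomyosin 1 (Tpm1), outside this list, was higher by 1.75 (SE 0.39), with ranges of 7.61 to 9.17 and 9.23 to 10.84 that did not overlap. Of Tpm1's other kept probe sets, 1 was higher by 0.52 and 1 lower by 0.18.

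The list for fibre calcium handling and energy supply had a median of 0.56. Of its 20 measured genes 17 were higher and 10 had an unadjusted p under 0.05, all higher (6.38% of all genes). Ckmt2, the mitochondrial creatine kinase of muscle, read 5.90, 4.85, 5.98 and 6.59 at 12 months and 6.99, 6.95, 7.70, 7.92 and 8.44 at 24 months. Every aged array lay above every middle-aged array, and the difference was 1.77 (SE 0.41) (3.42-fold, adjusted p = 0.25). Ckm, the cytosolic form, read 7.72, 7.25, 8.51 and 7.92 and then 8.80, 9.09, 9.43, 9.77 and 9.72, again with no overlap, and was higher by 1.51 (SE 0.33). Myoglobin (Mb), the oxygen store of fibres, read 8.21, 7.88, 7.83 and 8.12 and then 8.38, 9.36, 9.17, 9.44 and 9.96, and was higher by 1.25 (SE 0.30). Eno3, the muscle enolase, was higher by 1.09 (SE 0.26) without overlap, and parvalbumin (Pvalb), the calcium buffer of fast fibres, by 1.49 (SE 0.36). The heart and muscle fatty acid carrier Fabp3, on the list for fatty acid oxidation and lipid uptake, was higher by 1.20 (SE 0.30). Ckm, Mb and Fabp3 each had a second, dimmer probe set with differences of -0.13, -0.02 and -0.19.

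The level of the fibre lists varied between arrays of the same age. The mean of the fibre contractile proteins list was 6.41, 6.14, 6.88 and 6.5 on the middle-aged arrays and 6.89, 7.24, 7.52, 7.49 and 7.97 on the aged arrays, so aged 1 and middle-aged 3 lay next to each other. Within array set 1 the list median was 0.58, with 6 genes at an unadjusted p under 0.05, and within set 2, where 12 months had only 1 array, it was 1.28, with 15. Without shared-sequence probe sets 9 genes of the list were at that level. For fibre calcium handling and energy supply it was 0.31 within set 1 and 1.02 within set 2. In the early step, which shares the middle-aged arrays, the same 2 lists had medians of 0.20 and 0.20. In a bulk sample, more cells or fragments of a type and more RNA per cell cannot be told apart.

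Promoters of Mylpf and Ckm are shown because both genes were higher without overlap and both hold the E-box CAGCTG, a site type bound by Myod1 and myogenin. The windows are RefSeq promoters (GRCm38.p6), 300 bases that span the transcription start, 5′ to 3′, and capitals mark the E-box. Mylpf lies at chr7:127211358-127211657 on the plus strand and Ckm at chr7:19410844-19411143 on the plus strand.
Mylpf: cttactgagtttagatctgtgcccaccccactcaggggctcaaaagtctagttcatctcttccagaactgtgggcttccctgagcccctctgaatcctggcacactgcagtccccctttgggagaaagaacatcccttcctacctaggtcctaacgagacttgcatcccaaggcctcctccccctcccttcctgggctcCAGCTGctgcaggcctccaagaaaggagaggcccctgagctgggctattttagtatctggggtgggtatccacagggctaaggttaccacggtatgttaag
Ckm: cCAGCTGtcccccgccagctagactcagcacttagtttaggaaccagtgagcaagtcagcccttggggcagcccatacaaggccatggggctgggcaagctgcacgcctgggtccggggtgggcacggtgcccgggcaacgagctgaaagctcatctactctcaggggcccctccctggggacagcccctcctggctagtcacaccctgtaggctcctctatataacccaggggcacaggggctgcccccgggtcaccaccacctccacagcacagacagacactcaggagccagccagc
The E-box CAGCTG, which reads the same on both strands, was in 10 of 23 promoters of the fibre contractile proteins list (43.5%, with 19 of 25 genes matched) and in 10 of 21 of the fibre calcium handling and energy supply list (47.6%). It was in 5354 of 32841 RefSeq mouse promoters (16.3%). These shares describe the gene lists, were sought after their values were known, and are no test of binding.

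**Figure D2:**
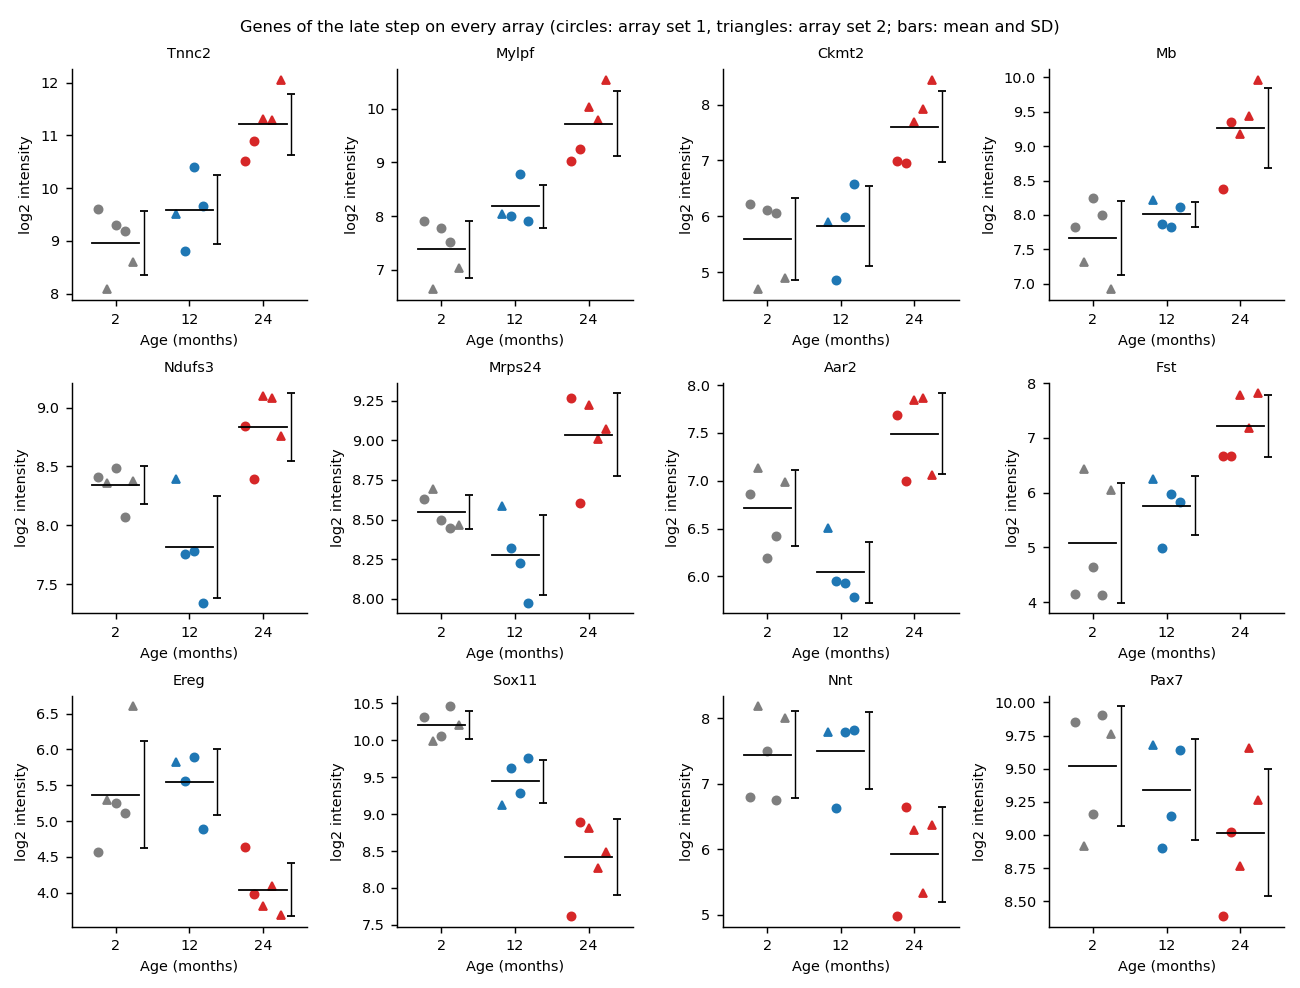
Log2 intensity (vertical) of 12 genes at 2, 12 and 24 months, with 1 point per array, circles for array set 1, triangles for array set 2, and bars for the mean and SD. The fibre genes Tnnc2, Mylpf, Ckmt2 and Mb lie above all middle-aged arrays on all 5 aged arrays, and Ereg and Sox11 lie below.

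Genes of myogenic commitment and fusion were also mostly on the higher side, with a list median of 0.51 over 19 measured of 22 genes. Of these 15 were higher, 5 of them at an unadjusted p under 0.05 (6.38% of all genes). Below the filter level on 2 or more middle-aged arrays were 5 of the 19 genes. The median and the counts include these dim genes, and Chrng and Tnnt2 are among those counted at that p. Mef2c, a transcription factor of differentiating muscle, read 5.42, 4.81, 5.70 and 4.56 at 12 months and 6.49, 6.0, 4.99, 6.72 and 7.22 at 24 months. Aged 3 lay within the middle-aged range and the other aged arrays above it, with a difference of 1.16 (SE 0.37) (adjusted p = 0.389) and all 4 kept probe sets on the same side. Chrna1 and Chrng, subunits of the acetylcholine receptor, were higher by 0.79 (SE 0.33) and 0.49 (SE 0.20), and Cdh2, the cadherin of fusing myoblasts, by 0.51 (SE 0.22). For Chrna1 the early difference was -2.18 (limma adjusted p = 0.00236), and the difference between 24 and 2 months was -1.39. Chrng lay below the filter level on 3 of 4 middle-aged arrays. Myogenin read 5.91, 5.98, 6.80 and 6.42 at 12 months and 7.79, 7.05, 8.52, 5.73 and 6.69 at 24 months. Its arrays overlapped widely, and the difference of 0.88 (SE 0.75) had an interval of -0.71 to 2.47. Embryonic and cardiac troponin T (Tnnt2) reached 6.94 on aged 1 and 7.05 on aged 3 but 3.99, 3.87 and 2.91 on the other aged arrays, and ranged from 2.98 to 3.78 at 12 months, below the filter level on all 4. The count at an unadjusted p under 0.05 in the myogenic commitment and fusion list was 1 without middle-aged 1 and also 1 without aged 3, and 3 without middle-aged 2, middle-aged 4 or aged 1. Its median was 0.31 with a stricter dim filter and 0.30 with 16 added before log2, and 0.39 and 0.57 within array sets 1 and 2. The median of this list in the early step was -0.29.

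Satellite cell genes leaned to the lower side, without a gene that stood apart. All 27 genes on the list of satellite cell identity and quiescence were measured, 22 were lower and 5 higher, and the list median was -0.22, against 0.01 over all genes. Only Chrdl2, a secreted BMP antagonist, had an unadjusted p under 0.05 (3.23% of all genes were lower at that level). Chrdl2 read 10.45, 10.70, 10.40 and 10.79 at 12 months and 10.70, 10.07, 9.55, 10.34 and 9.84 at 24 months. Aged 1 lay within the middle-aged range and the other aged arrays below it, for a difference of -0.49 (SE 0.21) (adjusted p = 0.472). Calcr, the calcitonin receptor that keeps satellite cells quiescent, differed by -0.50 (SE 0.35), with ranges of 6.98 to 8.39 and 5.92 to 7.70 that overlapped. Fgfr4 differed by -0.49 (SE 0.29), Cd82 by -0.44 (SE 0.39), and the Notch target Heyl and receptor Notch3 by -0.40 (SE 0.37) and -0.34 (SE 0.24). The 95% intervals of all 5 reached from below 0 to above 0. Heyl's other kept probe set differed by 0.08. The list median was -0.12 without middle-aged 4 and also -0.12 without aged 1. It was -0.24 within array set 1 and -0.16 within set 2, and -0.36 in the early step. The array means of the list ran from 9.19 to 9.58 at 12 months and from 8.96 to 9.41 at 24 months.

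Mitochondrial genes were higher at 24 than at 12 months in small and widely shared steps. The oxidative phosphorylation list, the subunits of the respiratory chain and ATP synthase, had 46 measured genes, 44 of them higher, and a median of 0.31. At an unadjusted p under 0.05, 21 were higher and 1 lower, against 6.38% and 3.23% of all genes. Ndufs3, a core subunit of complex I, read 8.39, 7.75, 7.78 and 7.34 at 12 months and 8.85, 8.39, 9.10, 9.08 and 8.76 at 24 months. Middle-aged 1 and aged 2 met and all other arrays were apart, for a difference of 1.02 (SE 0.20) (2.02-fold, adjusted p = 0.242). Ndufs4 of the same complex was higher by 1.08 (SE 0.29), Sdhb of complex II by 0.55 (SE 0.15), Uqcrh of complex III by 0.71 (SE 0.27) and Atp5o of the ATP synthase by 0.71 (SE 0.22). Sdhc, the exception below an unadjusted p of 0.05, was lower by 0.39 on its brightest probe set and higher by 0.59 on the other, so its direction is not settled. Cisd1, an iron-sulfur protein of the outer mitochondrial membrane outside the list, was higher by 0.91 (SE 0.18), with ranges of 7.91 to 8.50 and 8.76 to 9.46 that did not overlap.

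The machinery that translates mitochondrial messages differed by similar amounts. Of 46 measured mitochondrial ribosomal proteins 44 were higher, with a median of 0.41. At an unadjusted p under 0.05, 20 were higher, against 6.38% of all genes. Mrps24 of the small subunit read 8.59, 8.32, 8.23 and 7.98 at 12 months and 9.27, 8.60, 9.22, 9.01 and 9.07 at 24 months. The groups did not overlap, by a margin between middle-aged 1 and aged 2 that was under the spread of either group, and the difference was 0.76 (SE 0.16) (adjusted p = 0.242). Mrps7 was higher by 0.67 (SE 0.17) and Mrpl11 by 0.49 (SE 0.13), and Mrps14 by 1.05 (SE 0.34) on its brightest probe set and by -0.06 on the other. The TCA cycle list had 18 of 22 genes higher and a median of 0.23, which was 0.39 without middle-aged 1. Within array set 1 the TCA cycle median was 0.06, with 12 genes higher and 10 lower, and within set 2 it was 0.14. Dlst, of the oxoglutarate dehydrogenase complex, was higher by 0.55 (SE 0.17), and Sucla2, a succinyl-CoA ligase subunit, by 0.60 (SE 0.23). Of the fatty acid oxidation and lipid uptake list 14 of 23 genes were higher (median 0.20), among them Acadl, the long-chain acyl-CoA dehydrogenase, by 0.55 (SE 0.15), and Acaa2, which cleaves the chain, by 0.63 (SE 0.22). That median was 0.07 without aged 3, 0.31 without middle-aged 1, 0.04 with the 3' minus 5' covariate, 0.09 with array set as a term, 0.13 after quantile normalization, and 0.04 and 0.10 within array sets 1 and 2. The mitochondrial peroxidase Prdx3 was higher by 0.67 (SE 0.24) without overlap. Glycolysis had a median of 0.19 with 9 of 14 genes higher, and of 0.0042 without shared-sequence probe sets.

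Nnt, the transhydrogenase that makes NADPH in the mitochondrion, went the other way and had the largest negative difference of all genes. It read 7.79, 6.62, 7.78 and 7.82 at 12 months and 4.98, 6.64, 6.30, 5.32 and 6.37 at 24 months, against 6.80, 8.18, 7.49, 6.76 and 8.0 at 2 months. Middle-aged 2 lay within the aged range and the other middle-aged arrays above it. The difference was -1.58 (SE 0.39), or 2.99-fold lower (adjusted p = 0.283), and both kept probe sets were lower. C57BL/6 substrains are known to differ in this gene; the labels name none, and whether the substrain differed between the ages was not tested.

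Proteasome genes had a median of 0.37, with 29 of 31 subunits higher and 9 at an unadjusted p under 0.05. All 9 were higher, against 6.38% of all genes at that level. Psmc5, an ATPase of the regulatory cap, read 7.59, 7.63, 7.81 and 7.31 at 12 months and 8.46, 8.09, 7.80, 8.65 and 8.02 at 24 months. Aged 3 and middle-aged 3 met and the rest were apart, for a difference of 0.62 (SE 0.18). The core subunits Psma5, Psma7 and Psmb5 were higher by 0.47 (SE 0.14), 0.66 (SE 0.22) and 0.37 (SE 0.14). Ribosome biogenesis genes were higher in 24 of 28 (median 0.16), with Wdr12 and Pes1, partners in large subunit assembly, higher by 0.91 (SE 0.30) and 0.79 (SE 0.26), and Gar1, of the pseudouridylating particles, by 0.49 (SE 0.16). The ribosome biogenesis median was 0.05 without aged 4, 0.11 without aged 1, 0.25 without aged 5 and 0.08 after quantile normalization, and 0.21 and 0.12 within array sets 1 and 2. Its array means overlapped, at 8.98 to 9.25 and 8.89 to 9.74. Cytosolic ribosomal proteins had a median of 0.06.

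In oxidative phosphorylation, proteasome subunits and fibre contractile proteins the array means of the list did not overlap between 12 and 24 months. Nor did those of myogenic commitment and fusion, at 6.22 to 6.53 and 6.61 to 7.53. The means ran from 9.53 to 9.83 and from 9.86 to 10.18 for oxidative phosphorylation, and from 9.42 to 9.57 and from 9.61 to 10.17 for proteasome subunits. The mitochondrial ribosomal proteins list had means of 7.05 to 7.24 and 7.20 to 7.87, with aged 2 below middle-aged 1. In the early step the medians were -0.29 for oxidative phosphorylation, -0.28 for mitochondrial ribosomal proteins, -0.26 for proteasome subunits, -0.38 for the TCA cycle and -0.24 for ribosome biogenesis. The early and late steps share the 4 middle-aged arrays, so low values on these arrays enter both with opposite signs. Measured against the young arrays, the aged medians were 0.03, 0.09, 0.09, -0.09 and 0.04 in the same order. The oxidative phosphorylation count at an unadjusted p under 0.05 was 10 without middle-aged 2, 13 without aged 4 and 13 without aged 5, and the proteasome subunits count was 5 without aged 4 and 15 without aged 2. Within array sets 1 and 2 the medians were 0.19 and 0.28 for oxidative phosphorylation, 0.33 and 0.43 for mitochondrial ribosomal proteins, and 0.25 and 0.31 for proteasome subunits.

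**Figure D3:**
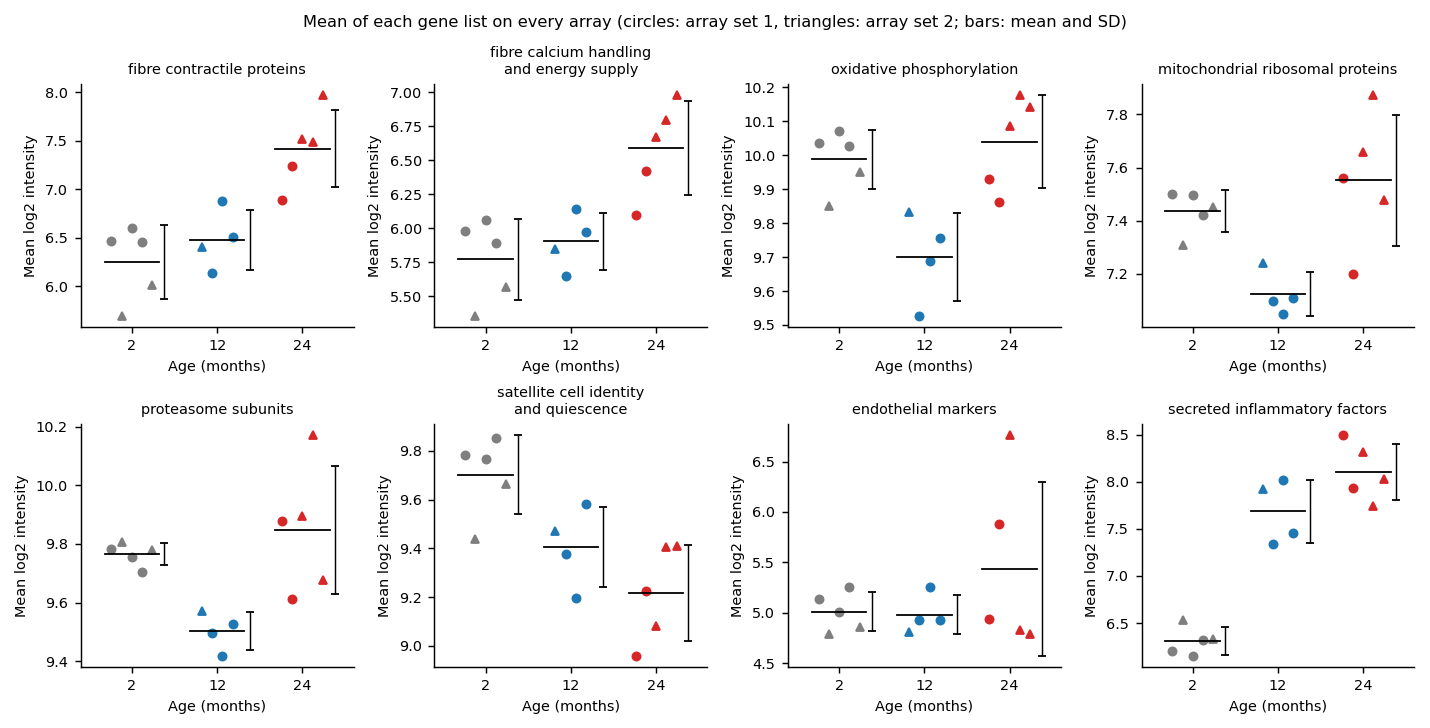
Mean log2 intensity (vertical) of 8 gene lists on each array at 2, 12 and 24 months, with circles for array set 1, triangles for array set 2, and bars for the mean and SD. For fibre contractile proteins, oxidative phosphorylation and proteasome subunits the 5 aged arrays lie above the 4 middle-aged arrays, and aged 2 and 3 stand apart in endothelial markers.

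Promoters of Ndufs3 and Psmc1 are shown as examples of these nuclear genes of mitochondria and proteasome. The windows are RefSeq promoters as above, and capitals mark the core of ETS factor sites, CCGGAAG on either strand. Ndufs3 lies at chr2:90904672-90904971 on the minus strand and Psmc1, another ATPase of the cap that was higher by 0.66 (SE 0.23), at chr12:100109952-100110251 on the plus strand.
Ndufs3: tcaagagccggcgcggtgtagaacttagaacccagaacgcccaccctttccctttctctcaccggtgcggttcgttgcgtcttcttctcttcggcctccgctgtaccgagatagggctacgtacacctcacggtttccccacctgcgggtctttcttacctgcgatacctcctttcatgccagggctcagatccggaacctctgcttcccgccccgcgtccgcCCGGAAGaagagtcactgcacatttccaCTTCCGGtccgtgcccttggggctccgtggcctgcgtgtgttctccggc
Psmc1: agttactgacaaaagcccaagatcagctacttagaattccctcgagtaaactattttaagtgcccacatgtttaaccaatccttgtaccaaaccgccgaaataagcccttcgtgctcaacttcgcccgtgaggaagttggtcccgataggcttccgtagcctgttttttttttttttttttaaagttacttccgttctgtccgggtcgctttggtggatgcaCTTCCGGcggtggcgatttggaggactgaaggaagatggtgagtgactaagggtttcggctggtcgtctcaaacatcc
The ETS core was in 15 of 42 promoters of mitochondrial ribosomal proteins (35.7%), 9 of 40 of oxidative phosphorylation (22.5%) and 11 of 27 of proteasome subunits (40.7%), against 8.86% of all promoters. It was in 0 of 23 promoters of fibre contractile proteins. Matched to promoters were 39 of 46 mitochondrial ribosomal protein genes, 36 of 46 oxidative phosphorylation genes and 25 of 31 proteasome genes. Like those of the E-box, these shares describe the gene lists, were sought after their values were known, and are no test of binding.

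Of the secreted inflammatory genes 18 of 24 were on the higher side in the late step. The list of secreted inflammatory factors had a median of 0.38, against an early median of 0.86. At an unadjusted p under 0.05, 2 of 24 genes were higher, near the share over all genes tested (6.38%). The count was 8 without middle-aged 1, 5 without middle-aged 3, aged 2 or aged 4, and 4 without aged 1. Tac1, the precursor of substance P, read 9.34, 6.54, 9.02 and 8.83 at 12 months and 10.57, 11.01, 10.14, 9.28 and 9.78 at 24 months. Aged 4 lay within the middle-aged range and the other aged arrays above it, for a difference of 1.72 (SE 0.48) (adjusted p = 0.348). Cxcl9, an interferon-induced chemokine, was higher by 1.51 (SE 0.50) on its brighter probe set, while the other differed by -0.15. Tnfaip2, a TNF-induced gene on the list of NF-kappaB subunits and feedback genes, was higher by 1.04 (SE 0.27) after an early rise of 2.12 (adjusted p = 0.000762). Its other probe sets differed by 0.38 and -0.01, and 12 of the 18 measured genes of the NF-kappaB list were lower. Il6 and Il33, which rose by 2.86 and 3.25 in the early step, differed by 0.43 (SE 0.56) and 0.68 (SE 0.34) in the late step, with intervals that included 0. Mmp3, a matrix protease, read 9.14, 9.26, 11.87 and 8.83 and then 11.75, 11.90, 10.99, 9.49 and 10.08, so that middle-aged 3 lay above 4 of the 5 aged arrays, and its difference was 1.07 (SE 0.62). Its inhibitor Timp1 was higher by 0.53 (SE 0.22), on the list of matrix proteases and inhibitors, where 11 of 19 measured genes were lower. The list median of secreted inflammatory factors was 0.20 without middle-aged 2 and 0.59 with array weights, and 0.46 within array set 1 and -0.0013 within set 2.

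Of 35 interferon response genes 25 were higher, 7 at an unadjusted p under 0.05, with a median of 0.21. Over all genes tested 51.4% were above 0, and 6.38% were higher at that level. Ifit1, which binds foreign RNA, read 4.98, 4.09, 4.39 and 5.21 at 12 months and 6.23, 5.52, 7.10, 5.79 and 5.50 at 24 months, with no overlap and a difference of 1.36 (SE 0.44) (adjusted p = 0.392). Oasl2 and Bst2 (tetherin) were higher by 0.62 (SE 0.21) and 0.46 (SE 0.17), and Gbp2, a guanylate-binding protein that rose by 1.81 in the early step, differed by -0.31 (SE 0.30). Mndal was higher by 1.39 (SE 0.57) after an early rise of 3.52, in a gene family whose members share sequence. The interferon response median was 0.10 without aged 3 and 0.32 without aged 5, and 0.28 and 0.11 within array sets 1 and 2. Its count at an unadjusted p under 0.05 was 4 without aged 3 and 4 without middle-aged 2. MHC class I presentation had 13 of 16 genes higher and a median of 0.27, or 0.15 without middle-aged 2 and 0.16 without aged 3, and 0.25 and 0.39 within array sets 1 and 2. It was led by the immunoproteasome subunits Psmb10 (0.94 (SE 0.31)) and Psmb8 (0.63 (SE 0.21)) and the activator Psme1 (0.33 (SE 0.14)).

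Tenocyte markers, which had the largest early median (1.93), had a late median of -0.06, with 0 of 12 at an unadjusted p under 0.05. Thbs4, a tendon matrix protein, rose by 3.37 in the early step (adjusted p = 0.000504) and differed by -0.12 (SE 0.40) in the late step, with an interval of -0.98 to 0.73. Matrix glycoproteins and basement membrane genes had a late median of 0.02 after 0.70 early, fibro-adipogenic and fibroblast markers -0.02 after 0.62, and collagens -0.04 after 0.12. Periostin (Postn), a matricellular protein of remodelling tissue, was higher by 1.03 (SE 0.35) in the late step. Mitosis genes had a late median of 0.18 after -0.86 early, but 0.08 without middle-aged 2 or aged 3, 0.10 without aged 5, 0.29 without aged 1, and 0.0013 and 0.09 within array sets 1 and 2. DNA replication genes had 0.09 after -0.22. The proliferation marker Mki67 read 4.96, 4.61, 4.92 and 4.60 at 12 months and 4.29, 6.77, 7.70, 5.20 and 6.05 at 24 months, spread over the aged arrays with a difference of 1.23 (SE 0.79) and an interval of -0.45 to 2.91.

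Among signalling genes the balance was to the lower side for FGF, IGF and Hox lists, where 48.6% of all genes tested were below 0. FGF receptors and Sprouty feedback had 13 of 19 genes lower and a median of -0.19, or -0.07 and -0.23 within array sets 1 and 2. Averaging probe sets gave -0.09, as did leaving out shared-sequence probe sets. Spry4, a feedback inhibitor of FGF signalling, read 6.79, 6.23, 5.96 and 6.59 at 12 months and 5.28, 6.19, 5.94, 5.47 and 5.56 at 24 months. Aged 2 lay within the middle-aged range and the other aged arrays below it, for a difference of -0.70 (SE 0.21) (adjusted p = 0.366). Fgf1 was lower, with a difference of -0.59 (SE 0.24), while the ERK phosphatase Dusp6 was higher by 0.77 (SE 0.26). The IGF axis had 12 of 17 genes lower and a median of -0.18. Its 3 genes at an unadjusted p under 0.05 were all lower (3.23% of all genes were lower at that level). Foxo1, a transcription factor that insulin and IGF signals keep out of the nucleus, read 10.37, 10.08, 10.64 and 10.45 and then 9.95, 10.14, 9.61, 9.85 and 9.81, where aged 2 alone reached the middle-aged range, and differed by -0.51 (SE 0.15). The IGF-binding protein Igfbp5 differed by -0.63 (SE 0.22) and the adaptor Irs2 by -0.61 (SE 0.28). Igfbp5 had risen by 0.98 in the early step. The IGF axis median was -0.05 without aged 4, -0.08 without shared-sequence probe sets, and 0.01 and -0.19 within array sets 1 and 2. Of 34 listed Hox genes 19 were measured and 17 of these were lower, with a median of -0.20 (-0.12 with 16 added before log2, and -0.15 and -0.13 within array sets 1 and 2). In the list 3 genes lay below the filter level on 2 or more middle-aged arrays. Hoxa3, with the smallest p, differed by -0.29 (SE 0.12). Its probe set averaged 4.41, near the filter level of 3.79 to 3.96.

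The list for TGF-beta, activin and GDF11 signalling was centred on -0.02, with 13 of 26 genes higher. Follistatin (Fst), a secreted inhibitor of activin, myostatin and GDF11, was its exception. It read 6.26, 4.99, 5.98 and 5.83 at 12 months and 6.66, 6.67, 7.78, 7.18 and 7.82 at 24 months, with no overlap, and was higher by 1.46 (SE 0.46) (2.75-fold, adjusted p = 0.389). Gdf11 itself read 4.96, 5.04, 4.92 and 4.48 and then 4.45, 4.93, 4.31, 4.34 and 4.79, with overlap, and differed by -0.29 (SE 0.17) (interval -0.65 to 0.07). BMP signalling and Id genes had a median of 0.00, with Bmp4 lower by a difference of -0.56 (SE 0.22). Wnt signalling had a median of -0.08, with the receptor Fzd4 at -0.65 (SE 0.27). Notch signalling stood at -0.04, JAK and STAT signalling at -0.10, and the p38 MAP kinase pathway at 0.03. Stat3 differed by -0.46 (SE 0.19) on its brightest probe set and by 0.51 on another. The clock output gene Dbp was higher by 0.59 (SE 0.26) after an early fall, with an early difference of -1.54. Of immediate early genes, a group that dissociation can induce, 15 of 30 were higher (median -0.01), and Fosb was lower, with a difference of -0.57 (SE 0.21). Heat shock chaperones and the unfolded protein response had medians of 0.01 and -0.02.

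**Figure D4:**
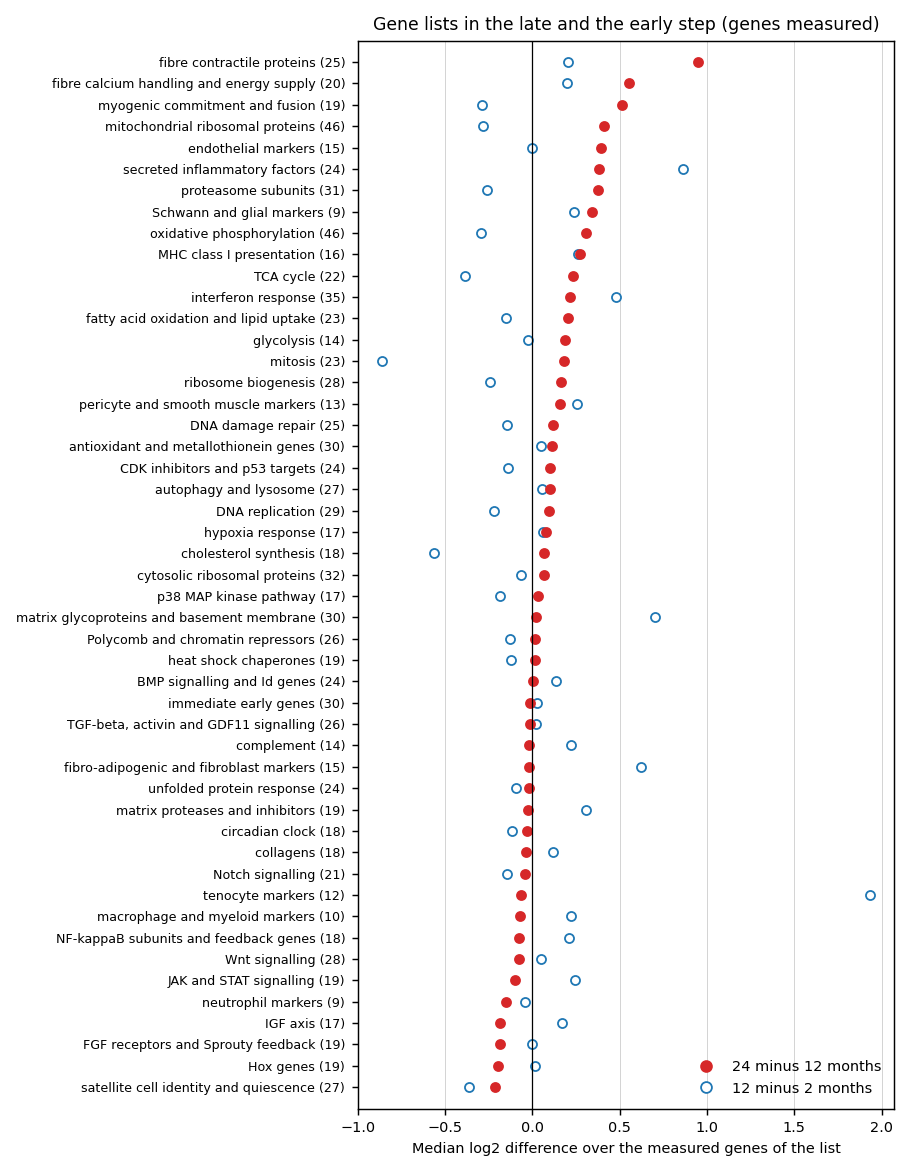
Median log2 difference (horizontal) of each gene list with at least 9 measured genes in the late step (filled, 24 minus 12 months) and in the early step (open, 12 minus 2 months). Both steps use the same middle-aged arrays. Fibre lists lead the late step at 0.95 and 0.56, and tenocyte markers are at 1.93 early and -0.06 late.

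Outside these lists, the genes with the smallest p or the largest differences without overlap were of varied function. Aar2, a splicing assembly factor, had the smallest p of all genes. It read 6.51, 5.96, 5.93 and 5.78 at 12 months and 7.68, 7.0, 7.85, 7.86 and 7.06 at 24 months, with no overlap, and was higher by 1.45 (SE 0.24) (unadjusted p = 2.67e-05, adjusted 0.242). Its other kept probe sets differed by 0.74, 0.23 and -0.02. Enho, which encodes the peptide adropin, read 5.59, 5.40, 5.43 and 5.80 and then 6.23, 6.14, 6.28, 6.55 and 6.53, with no overlap, and was higher by 0.79 (SE 0.14) on its brightest probe set, while another differed by -0.36. Med8, of the Mediator complex, was higher by 0.83 (SE 0.15), Borcs7, of a lysosome-positioning complex, by 0.86 (SE 0.17), and Tm2d3 by 0.93 (SE 0.20). Pop5, of RNase P, was higher by 1.29 (SE 0.30), the pseudouridine synthase Pus3 by 1.18 (SE 0.27), and Dmap1 by 1.16 (SE 0.25). In each of these 8 genes every aged array lay above every middle-aged array, as in 1.41% of all genes tested. Pop5, Pus3 and Dmap1 were named by the rule that asks for no overlap, so their separation was fixed by that choice. Sult1e1, the oestrogen sulfotransferase, read 3.85, 3.13, 3.71 and 3.81 at 12 months, where 3 of 4 arrays lay below the filter level, and 4.93, 5.64, 6.38, 4.35 and 4.60 at 24 months. All 5 young arrays also lay below that level, so the gene passed the filter mainly through the aged arrays and its fold is not given. Kank4 and Procr, the protein C receptor, were higher by 1.22 (SE 0.29) and 1.13 (SE 0.34) and were named by the same rule of no overlap.

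Ereg and Sox11 led the genes that were lower without overlap. Ereg, the EGF receptor ligand epiregulin, read 5.82, 5.56, 5.90 and 4.89 at 12 months and 4.64, 3.98, 3.81, 4.10 and 3.69 at 24 months, with 2 aged arrays below the filter level. The difference was -1.50 (SE 0.33) (2.83-fold lower, adjusted p = 0.25). Sox11, a transcription factor of progenitor cells, had a mean of 10.21 ± 0.19 (SD, n = 5) at 2 months and read 9.12, 9.62, 9.28 and 9.76 at 12 months and 7.62, 8.89, 8.82, 8.28 and 8.48 at 24 months. Its 3 age groups did not overlap, all 6 kept probe sets were lower in the late step, and the late and early differences were -1.03 (SE 0.23) and -0.76. Rian, an imprinted noncoding RNA, was lower with a difference of -0.96 (SE 0.25) and all 4 kept probe sets on the same side. Plcl2 differed by -0.81 (SE 0.20), Pcdh11x by -0.73 (SE 0.15), the Rac activator Prex1 by -0.68 (SE 0.18), Clip1, a protein of microtubule ends, by -0.66 (SE 0.18), and the histone demethylase Kdm7a by -0.61 (SE 0.20). Pcdh11x had risen by 0.67 in the early step and differed by -0.06 between 24 and 2 months, with 1 aged array below the filter level. Adamtsl2, Marveld2 and Mpzl2 differed by -0.92 (SE 0.27), -0.97 (SE 0.36) and -0.97 (SE 0.39), each with 1 middle-aged array far above the others.

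The difference between the late and the early step was tested as a contrast of its own. It called 0 of 13579 genes, with a smallest adjusted p of 0.0967. At an unadjusted p under 0.05, 1039 genes (7.65%) had a late difference above the early difference and 575 (4.23%) one below it. With weights for array quality this contrast called 123 genes above and 56 below. Borcs7 had the smallest p, with an early difference of -0.99, a late difference of 0.86 and a late minus early value of 1.85 (SE 0.29, adjusted p = 0.0967). Med8 followed with early -0.80 and late 0.83, and Slc11a2, an iron transporter, with early -1.62 and late 0.53. Serpina3n, a secreted protease inhibitor, was at early 3.45 and late -0.54, and Isg20, an interferon-induced exonuclease, at early 1.36 and late 0.04. Isg20 thus differed by 0.04 (SE 0.13) in the late step, with an interval of -0.24 to 0.32.

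Markers of other cells differed between arrays of the same age. Endothelial markers had a median of 0.39 with 12 of 15 measured genes higher, and 3 of 18 listed genes were not measured because they lay below the filter. Their mean was 4.81 to 5.26 at 12 months, 5.88 on aged 2, 6.76 on aged 3 and 4.79 to 4.93 on the other aged arrays. Esam, a junction protein of endothelium, read 4.87, 5.06, 5.32 and 5.27 at 12 months and 5.26, 6.23, 7.55, 5.33 and 5.66 at 24 months, Cldn5 reached 7.83 and Vwf 6.36 on aged 3, while Tek differed by -0.48 (SE 0.32). Vwf lay below the filter level on 3 middle-aged, 2 aged and all 5 young arrays. It passed the filter mainly through aged arrays, and the endothelial count and median include it. Without aged 3 the endothelial markers median was 0.16, with 9 of 15 genes higher, while the fibre contractile proteins median was 1.03. Schwann and glial markers were higher in 9 of 9 (median 0.34), with the neuregulin receptor Erbb3 at 0.96 (SE 0.40) on its brighter probe set and -0.31 on the other. The Schwann and glial markers median was 0.10 without middle-aged 2, 0.14 without aged 1, 0.20 without middle-aged 1, 0.54 without middle-aged 4, 0.57 without aged 3 and 0.15 with array weights. Within array set 1 it was 0.39 with 9 of 9 higher, and within set 2 it was 0.06 with 5 of 9. Macrophage and myeloid markers had a median of -0.07 over 10 measured of 17, and 5 of 14 lymphoid markers were measured (median -0.18), with Cd3e at -0.56 (SE 0.16). Pericyte and smooth muscle markers stood at 0.16, neutrophil markers at -0.15, adipocyte markers at -0.02 and erythroid markers at -0.06. Within array sets 1 and 2 the medians were -0.0002 and -0.05 for pericyte and smooth muscle markers, -0.15 and 0.19 for neutrophil markers, and -0.26 and 0.0007 for lymphoid markers. The part of these cells in the results above was not tested.

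The remaining lists lay close to the median of all genes. DNA damage repair stood at 0.12, CDK inhibitors and p53 targets at 0.10, antioxidant and metallothionein genes at 0.11, with the endoplasmic reticulum peroxidase Gpx8 at 0.71 (SE 0.25), and autophagy and lysosome genes at 0.10. Hypoxia response genes stood at 0.08, cholesterol synthesis at 0.07 and Polycomb and chromatin repressors at 0.02. Circadian clock genes stood at -0.03, matrix proteases and inhibitors at -0.02, complement at -0.02, and NF-kappaB subunits and feedback genes at -0.08.

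**Figure D5:**
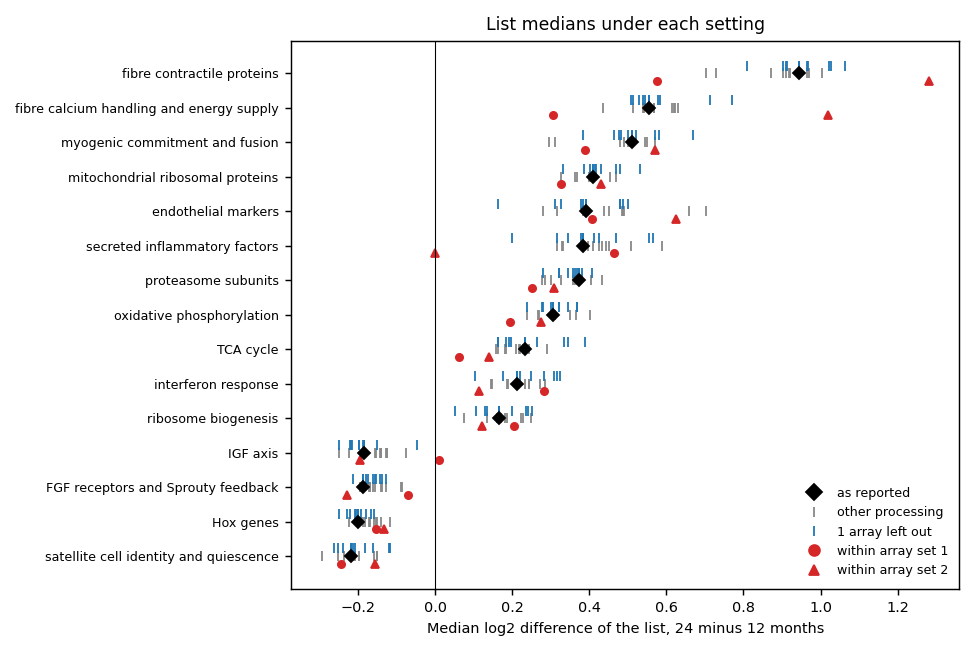
Median log2 difference (horizontal, 24 minus 12 months) of 15 gene lists as reported (diamonds), under other processing (grey ticks), with 1 array left out (blue ticks) and within each array set (red). The fibre contractile proteins median runs from 0.58 within set 1 to 1.28 within set 2, and secreted inflammatory factors are at -0.0013 within set 2.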

How the data were processed

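RNA of 14 samples was hybridized to Affymetrix mouse arrays. The authors deposited linear intensities made with RMA, per the submitters' processing notes, which corrects background, quantile-normalizes and summarizes probes. For the RMA version and the build, the sources used here give none. Of 45101 probe sets, 64 controls, 932 with several genes and 9160 with none were left out of gene tests. Probe sets above the 40th percentile of an array on 4 or more of all 14 arrays were kept without regard to age, and the brightest stood for its gene. The log2 values of all 14 arrays entered 1 linear model with age as factor (limma 3.58.1, R 4.3.3). Tests were moderated and two-sided, and p-values were adjusted by Benjamini-Hochberg. Errors of differences are limma's SE, and intervals cover 95%. Precision is limited by the number of arrays, as arrays have no read depth.

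Members and lists were chosen with earlier results of these data known. Genes were named by rule: the 15 largest differences each way at an unadjusted p under 0.05 without overlap, the 10 smallest p, up to 3 per list, the sort and lineage genes, and 5 for late minus early. Further list members (subunits, defining markers, exceptions) were named after their values were seen. Some genes that the rule picked, both higher and lower, are not described above. Alternatives covered the filter, probe set choice, scaling, model terms and each array left out.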

Additional observations from a re-analysis of the deposited data

Results flagged for a closer look

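Of 276 groups of values examined for an array far from the rest of its age group, 12 had one, and chance alone gives about 1 in 20. Middle-aged 3 accounted for 5 of them: Mylpf at 8.78 (nearest 8.04), Mmp3 at 11.87 (nearest 9.26), Marveld2 at 6.10 (nearest 4.71) and Adamtsl2 at 7.98 (nearest 6.78) were high, and Heyl at 6.56 (nearest 7.61) was low. On middle-aged 2, Itgb1 was high at 8.95 (nearest 8.24) and Nnt low at 6.62 (nearest 7.78). On middle-aged 1, Mpzl2 was high at 8.72 (nearest 6.91). Among aged arrays, Mrps7 was high on aged 4 at 9.91 (nearest 9.22), and on aged 3 Procr was high at 10.02 (nearest 8.55) and Fosb low at 8.58 (nearest 9.43). Kdm7a was low on aged 5 at 6.88 (nearest 7.64).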

How the results depend on the processing

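In 30 other settings no gene of the late step passed an adjusted p under 0.05, and 24 of 52 list medians kept their sign throughout, among them the fibre, myogenic, mitochondrial, proteasome and satellite cell lists. Genes lower at an unadjusted p under 0.05 numbered 741 without the dim filter, 236 with a stricter one and 264 after median centring, and higher genes 344 within array set 2. Over arrays left out in turn, lower genes ran from 278 to 669 and higher genes from 563 to 1214. A limma fit to only the aged and middle-aged arrays gave 676 higher and 327 lower, with a smallest adjusted p of 0.581. All kept probe sets, an addition made after seeing the data like the array sets, gave 1414 higher and 1142 lower. Late minus early called 2 above and 1 below with 16 added before log2, 123 and 56 with array weights, 7 and 9 with the hybridization control as a covariate, 4 and 3 with array set as a term, and 0 to 1 on each side with 1 array left out. Same-numbered arrays did not deviate together (correlations of their deviations -0.48, 0.11, -0.06 and 0.01), but so few values cannot exclude a pairing. A replicate block gave 830 higher and 261 lower genes.

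Signs turned for 11 of 125 genes. Over arrays left out, Myf5 ran from -0.313 to 0.304, Cxcr4 from -0.0178 to 0.371, Thbs4 from -0.298 to 0.109 and Isg20 from -0.0235 to 0.0801. Scaling turned Myf5 (0.0231, median centring) and Isg20 (-0.0592, quantile normalization). Probe set choice turned Aar2 (-0.0214) and Itgb1 (0.324) without shared-sequence probe sets, and Itgb1 (0.0295) and Sdhc (0.102) as means. Within set 1 Myod1 was -0.0974, Cxcr4 -0.0723 and Thbs4 0.150. Within set 2 Cd82 was 0.153, Il6 -0.0136, Il33 -0.0487 and Isg20 -0.0244. The cause was not tested.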

Other observations

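Probe sets without a single gene name were outside the gene tests. In a fit to all 28812 kept probe sets, 4925 had no single gene name. Of these 101 were higher and 342 lower at an unadjusted p under 0.05, and of the 23887 probe sets with 1 gene name in the same fit 1313 were higher and 800 lower. The smallest adjusted p in that fit was 0.253.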
